A study of Mus musculus with 6 samples.

Results

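Cenpa, Cenpe, Cenpf, Cenph, Cenpk, Ndc80, Nuf2, Spc24, Spc25 and Zwilch encode proteins of the centromere and of the kinetochore built on it. These 10 genes, out of 18193 measured by a probe set that carries a single gene symbol, were followed on expression arrays of a mouse pancreatic duct line. They had 18 of the 45037 probe sets tested. The probe set with the highest mean log2 signal stands for each gene, and its other probe sets are given beside it. The cells were mPAC L20, and every culture, controls included, was infected with an adenovirus (Ad.CMV.Neurog3) that makes the cells express Neurog3 (Neurogenin3), the basic helix-loop-helix factor that switches pancreatic progenitors to the endocrine fate. A first adenovirus delivered a scrambled hairpin in 3 samples (shControl) and a hairpin against Atoh8, also called Math6, in the other 3 (shAtoh8). The labels describe 3 independent experiments for each hairpin, with numbered replicates. Arrays of the same number were taken as pairs on the basis of their values. Both viruses were added at a multiplicity of infection of 40 to 250000 seeded cells. The hairpin virus was left for 4 h, its Neurog3 counterpart for 1.5 h, and culture lasted another 44 to 46 h. A single cell line was used. Uninfected cells and cells without Neurog3 were not analysed here.

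Chromosomes are pulled apart in mitosis through kinetochores. A centromere is marked by nucleosomes in which CENP-A, the product of Cenpa, takes the place of histone H3. On this chromatin sits a permanent inner layer, the constitutive centromere-associated network (CCAN), to which CENP-H and CENP-K belong. In mitosis the CCAN recruits the outer kinetochore, whose Ndc80 complex (Ndc80, Nuf2, Spc24 and Spc25) grips the microtubule ends. The RZZ complex (Rod, Zw10 and Zwilch) and the fibrous corona, with the motor CENP-E and the large coiled-coil protein CENP-F, are added outside it and serve microtubule capture and the spindle checkpoint. The messenger RNAs of many of these proteins are made mainly in late S, G2 and mitosis, so their level in a culture depends in part on how many cells are cycling.

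The unit is the log2 signal of a probe set after RMA, and array medians lay between 5.49 and 5.56. Atoh8, the target of the hairpin, read 8.75, 8.29 and 7.52 on shControl arrays 1, 2 and 3 against 7.83, 7.90 and 7.37 with its hairpin. The groups overlapped, and its fall did not pass limma (log2 fold change -0.49 ± 0.30 SE, adjusted p = 0.573, and 0.157 with the replicate number as a block). Within replicate numbers 1, 2 and 3 the difference was -0.92, -0.39 and -0.15. The duct markers Krt8, Krt18 and Krt19 read 13.3 to 13.9 on every array. Of the 7 duct markers measured 0 passed limma (2 had an unadjusted p under 0.05), and Epcam passed lower with the replicate block (-0.73 ± 0.19, adjusted p = 0.145 without and 0.0463 with it). Of 15 measured markers of acinar cells, fibroblasts, immune cells and endothelium, Lyz2 alone changed (0.75 ± 0.12, adjusted p = 0.0499), while Ptprc, the defining immune marker, read 3.52 to 3.81 on all arrays. The summed linear signal of the 3 immune markers was 173 to 238 in shControl and 218 to 227 in shAtoh8. Neurog3 itself read 7.45, 6.64 and 5.79 on the brighter of its probe sets in shControl and 6.78, 6.06 and 5.33 with the Atoh8 hairpin, a difference that passed with the block alone (adjusted p = 0.706 without and 0.0330 with it). Its other probe set, almost as bright, had the opposite sign (0.18 ± 0.17, 0.751 and 0.400). Of the 7 endocrine markers measured, Neurog3 included, 6 had a positive log2 fold change, 0 passed limma and only Neurog3 passed with the block. The shAtoh8 replicate 2 array stood apart, with a mean of the hybridisation spikes of 9.89 against 10.2 to 10.5 elsewhere and a 3' minus 5' actin difference of 0.354 against 0.107 to 0.202.

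All 10 genes read lower with the Atoh8 hairpin, by 1.56-fold (Zwilch) to 2.62-fold (Cenpa), where 46.9% of all genes had a negative value. A fall of at least 2-fold was seen for 5 (Cenpa, Cenpe, Cenpf, Cenpk and Nuf2), a size reached by 0.731% of genes. The members had a median log2 fold change of -0.99 against 0.01 over all 18193 genes. They were chosen with earlier results of these data known. The shares over all genes given here therefore describe the members and do not test them. For each of the 10, all 3 shAtoh8 arrays lay below all 3 shControl arrays, which held for 11.4% of all genes. Each was lower in all 3 pairs of the same replicate number, as were 21.5% of all genes. In limma without pairing, 1 member (Cenpa) passed an adjusted p of 0.05 as lower, against a background of 0.638% of genes, and all 10 had an unadjusted p under 0.05, as 8.82% of genes did on the lower side. With the replicate number as a block 7 members fell, and 2.75% of all genes did. The 7 were Cenpa, Cenpe, Cenph, Cenpk, Ndc80, Nuf2 and Spc24, while Cenpf (adjusted p = 0.0610), Spc25 (0.0615) and Zwilch (0.102) did not pass. Over all tested probe sets, deviations from the group means correlated between arrays of the same number in every pair, which is why the blocked values stand here. Over the 10 members alone these correlations were 0.673, 0.473 and 0.132 for numbers 1, 2 and 3. Between different numbers they ran from -0.691 to 0.244, so for the members pair 3 did not stand out. In whole cultures, fewer cells in the phases that express these genes and less RNA of them per cell cannot be told apart.

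**Figure D1:**
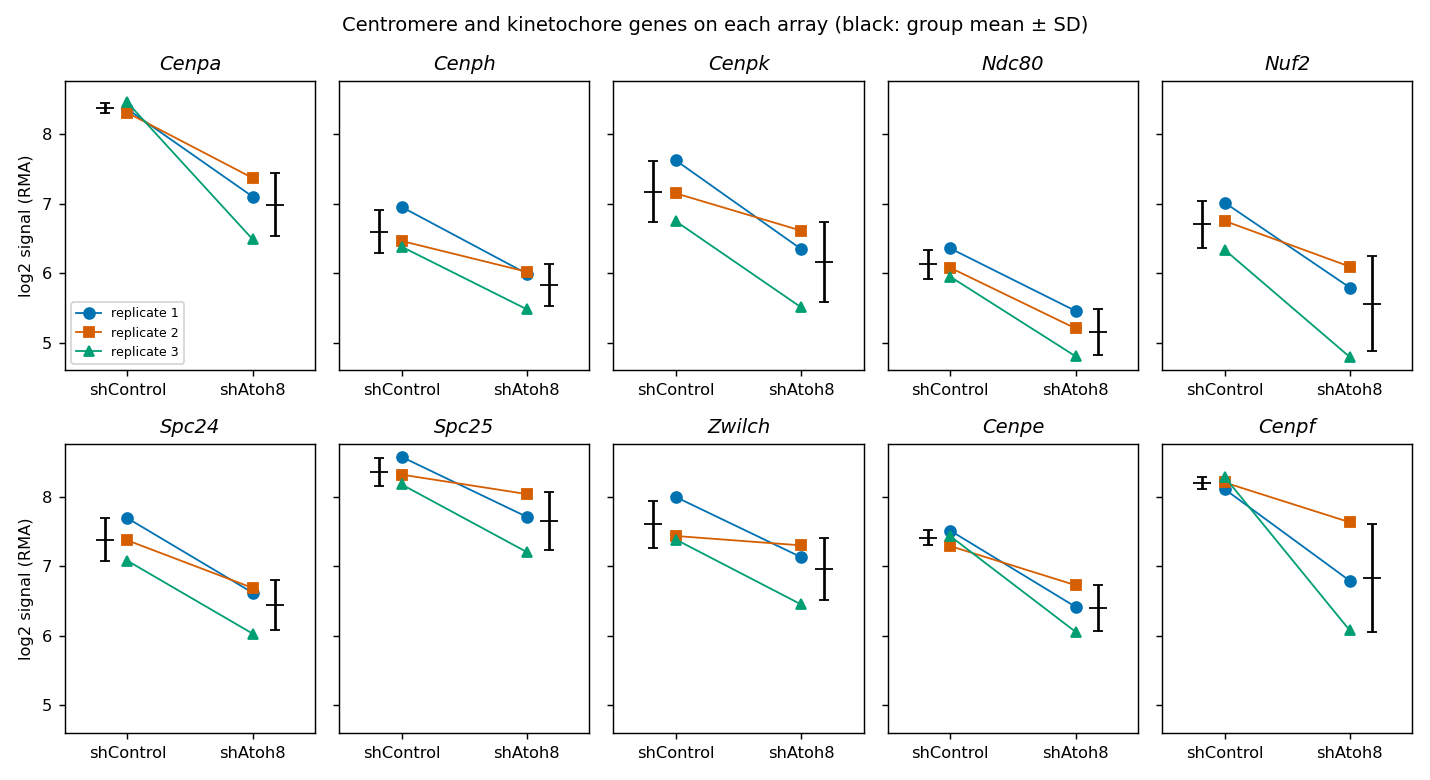
Log2 signal (RMA) of the 10 genes on each array, 1 panel per gene, with lines joining the shControl and shAtoh8 arrays of the same replicate number and black bars for the group mean ± SD (n = 3). In every panel all 3 lines go down and the groups do not overlap.

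The stretch around the annotated start of these genes is shown because they moved together and because promoters of mitotic genes are known for short shared elements. These are CCAAT boxes, bound by NF-Y, and the cell cycle genes homology region (CHR), usually written TTTGAA, which MuvB complexes read through Lin54. RefSeq promoters (GRCm38.p6, 250 bases before to 50 after a start) were matched for 8 of the 10 genes, with 10 starts in all, and Spc24 and Zwilch are named only. Both strands were searched for the CHR, for its rarer form TTCGAA, and for the CCAAT box. The usual CHR stood in 4 of the 10 member promoters (Cenpa, Cenpf, Ndc80 and Spc25) and in 17.9% of all 32851 promoters in the table. The rarer form stood in 0 of the 10 and in 1.56% of all. A CCAAT box stood in 8 of the 10, from 6 genes, and in 37.4% of all. Cenpk gave several of these starts, and by gene the box stood in 6 of 8 members and in 41.1% of all genes with a promoter. Within the 150 bases before the start it lay in 5 of the 10 member promoters and in 24.5% of all. In all 4 genes the CHR began within the 50 bases after the start, at base 17 in Cenpa, 3 in Cenpf, 25 in Spc25 and, on the opposite strand, 30 in Ndc80. It lay wholly in that window in 2.25% of all promoters, a window chosen after the positions were seen. Cenpa, Cenpf and Spc25 also held a pair of CCAAT boxes upstream. Nuf2, which had neither element in its window, is printed beside them. The regions are chr5:30666636-30666935, plus strand, for Cenpa, chr1:189688037-189688336, minus strand, for Cenpf, chr2:69206164-69206463, minus strand, for Spc25, chr17:71526808-71527107, minus strand, for Ndc80 and chr1:169531415-169531714, minus strand, for Nuf2. Each is printed 5′ to 3′ in the direction of the gene, and capitals mark the CHR and the CCAAT box or their reverse complements.
Cenpa: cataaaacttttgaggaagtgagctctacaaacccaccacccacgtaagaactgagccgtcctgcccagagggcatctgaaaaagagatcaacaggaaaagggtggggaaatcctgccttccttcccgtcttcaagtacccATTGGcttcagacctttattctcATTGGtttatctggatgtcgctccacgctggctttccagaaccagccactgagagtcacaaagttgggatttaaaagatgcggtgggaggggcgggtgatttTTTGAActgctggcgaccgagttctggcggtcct
Cenpf: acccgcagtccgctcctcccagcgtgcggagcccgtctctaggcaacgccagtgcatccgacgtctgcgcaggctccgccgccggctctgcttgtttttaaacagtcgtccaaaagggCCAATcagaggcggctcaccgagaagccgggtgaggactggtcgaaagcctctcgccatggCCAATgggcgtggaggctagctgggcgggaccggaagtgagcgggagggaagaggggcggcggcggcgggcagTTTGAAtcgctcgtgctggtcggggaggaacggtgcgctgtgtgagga
Spc25: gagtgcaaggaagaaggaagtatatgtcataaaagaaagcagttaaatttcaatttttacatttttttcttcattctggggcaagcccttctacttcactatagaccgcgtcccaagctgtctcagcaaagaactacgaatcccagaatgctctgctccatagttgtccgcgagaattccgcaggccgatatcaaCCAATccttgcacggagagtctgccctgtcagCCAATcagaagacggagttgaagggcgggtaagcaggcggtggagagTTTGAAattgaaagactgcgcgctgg
Ndc80: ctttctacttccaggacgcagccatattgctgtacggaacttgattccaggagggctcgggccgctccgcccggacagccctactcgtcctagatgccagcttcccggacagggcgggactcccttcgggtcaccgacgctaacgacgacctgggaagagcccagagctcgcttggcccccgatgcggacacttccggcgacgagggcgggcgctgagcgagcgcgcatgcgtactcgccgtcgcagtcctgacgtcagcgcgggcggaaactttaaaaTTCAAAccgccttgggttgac
Nuf2: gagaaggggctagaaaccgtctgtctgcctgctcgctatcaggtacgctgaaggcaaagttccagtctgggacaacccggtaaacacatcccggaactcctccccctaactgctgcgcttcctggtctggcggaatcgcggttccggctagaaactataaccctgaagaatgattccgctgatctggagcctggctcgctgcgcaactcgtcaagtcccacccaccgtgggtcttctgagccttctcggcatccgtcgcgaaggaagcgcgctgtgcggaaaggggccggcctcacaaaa
A match is a string of letters and was not tested as a binding site.

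Cenpa, the histone that marks the centromere, had the most negative log2 fold change of the members. On shControl arrays 1, 2 and 3 it read 8.36, 8.31 and 8.46, against 7.10, 7.37 and 6.49 on the shAtoh8 arrays of the same numbers. The control arrays lay close together and the shAtoh8 arrays spread over 0.88, with replicate 3 lowest. The group means of 8.38 ± 0.08 and 6.99 ± 0.45 (SD, n = 3) differed by -1.39 ± 0.21 on the log2 scale (SE, 95% interval -1.88 to -0.90), with a limma adjusted p of 0.0416 and 0.0292 with the block. Of the 18193 genes 29 had a more negative value. The call depended on the arrays: the adjusted p was 0.118, 0.160 and 0.125 without shControl replicate 1, 2 or 3 and 0.119 without shAtoh8 replicate 1, while the fold change stayed between -1.58 and -1.14 over all 6 omissions. It depended on the probe set too. Of the other Cenpa probe sets, one with a mean of 5.62 had a log2 fold change of -0.18 ± 0.12 (adjusted p = 0.609), and one with a mean of 3.25, whose ID carries the cross-hybridisation mark x, had 0.16 ± 0.08 (0.450). Averaged over its 3 probe sets Cenpa read -0.47 and missed the threshold (adjusted p = 0.0677).

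H3f3a and H3f3b, the genes for a replacement variant of histone H3, stood at 0.11 ± 0.10 and 0.00 ± 0.25 on the log2 fold change scale (adjusted p = 0.758 and 0.998). Their probe sets had mean signals of only 6.18 and 6.09, against 7.68 for Cenpa. Which part of the transcripts they read was not analysed here. Proteins that load or hold CENP-A chromatin did not pass either: of the 3 genes tested, 0 were called in limma with or without the block. An unadjusted p under 0.05 was reached by 0 without the block and by Oip5 with it (0.0294). Oip5, the Mis18-beta subunit of the CENP-A loading machinery, read -0.26 ± 0.16 and its partner Mis18a 0.33 ± 0.25 (adjusted p = 0.585 and 0.666).

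Cenph and Cenpk encode neighbours in one subcomplex of the CCAN, and both fell in the blocked fit. Cenph read 6.95, 6.46 and 6.38 in shControl and 5.99, 6.02 and 5.48 in shAtoh8. Its highest shAtoh8 array, replicate 2, lay 0.36 below its lowest control array, replicate 3. Its log2 fold change was -0.77 ± 0.20 (adjusted p = 0.138, and 0.0369 with the block). Cenpk read 7.62, 7.15 and 6.75 in shControl and 6.35, 6.61 and 5.51 in shAtoh8. Here the groups came within 0.13 of each other, and the control arrays spanned 0.88 against 0.15 for Cenpa. Cenpk had a log2 fold change of -1.02 ± 0.32 (adjusted p = 0.204, and 0.0359 with the block). The dim probe sets of Cenpk, with means of 3.92 and 3.03, read -0.10 ± 0.09 and -0.03 ± 0.10 (adjusted p = 0.705 and 0.954).

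The rest of the inner network moved unevenly. Of 13 other subunits, all measured, 12 had a negative log2 fold change, with a median of -0.46. Limma called 0 of them (8 had an unadjusted p under 0.05). The blocked fit, which called 2.75% of all genes lower, called 5, all lower. Cenpl read -1.03 ± 0.19 (adjusted p = 0.0671 without and 0.0162 with the block) and Cenpq -0.79 ± 0.17 (0.0876 and 0.0359). Cenpu read -0.63 ± 0.15 (0.113 and 0.0267) and Cenpi, the direct partner of CENP-H and CENP-K, -1.23 ± 0.30 (0.124 and 0.0409). At the other end were Cenpc1, the CCAN protein that contacts the CENP-A nucleosome (-0.19 ± 0.10, adjusted p = 0.485), Cenpt, which recruits the Ndc80 complex (-0.18 ± 0.09, 0.411), and Cenpx (0.10 ± 0.10, 0.755). The subunit CENP-R was not on the list and was not analysed here. These 3 were singled out after their values were seen.

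All 4 subunits of the Ndc80 complex read lower, by 1.63-fold to 2.21-fold. Ndc80, whose head binds the microtubule, read 6.36, 6.08 and 5.95 in shControl and 5.46, 5.20 and 4.80 in shAtoh8. Its 3 within-pair differences lay close together, at -0.90, -0.87 and -1.14. The log2 fold change was -0.97 ± 0.18 (adjusted p = 0.0667, and 0.0162 with the block, the lowest blocked value among the members). Nuf2, the partner of Ndc80 in that head, read 7.01, 6.75 and 6.34 in shControl and 5.79, 6.09 and 4.79 in shAtoh8. The lowest control array and the highest shAtoh8 array were 0.24 apart, and replicate 3 was lowest in both groups. Nuf2 differed by -1.14 ± 0.33 on the log2 scale (adjusted p = 0.179, and 0.0318 with the block). It was -0.76 without shAtoh8 replicate 3 (adjusted p = 0.253).

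Spc24 and Spc25 form the other end of the complex, which docks on the inner kinetochore. Spc24 read 7.69, 7.37 and 7.08 in shControl against 6.62, 6.69 and 6.03 in shAtoh8. All 3 shAtoh8 arrays lay at least 0.39 below the controls. Its log2 fold change was -0.94 ± 0.21 (adjusted p = 0.105, and 0.0222 with the block). Spc25 read 8.58, 8.32 and 8.18 in shControl and 7.71, 8.04 and 7.21 in shAtoh8. The shAtoh8 replicate 2 array was 0.14 below the lowest control array. The log2 fold change was -0.71 ± 0.21 and did not pass (adjusted p = 0.188, and 0.0615 with the block). A dimmer Spc25 probe set with a mean of 5.08 had the opposite sign (0.03 ± 0.11, adjusted p = 0.954). The 95% intervals of the 4 subunits overlapped, and whether they differed among themselves was not tested.

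The platform between these layers behaved less uniformly. In the list of Mis12 and Knl1 complex genes 3 of 6 had negative and 3 positive values. Knl1, the scaffold on which checkpoint proteins gather, fell (-0.75 ± 0.11, adjusted p = 0.0391, and 0.0366 with the block), and was the one gene of this list to pass without the block. Dsn1, a Mis12 complex subunit, fell with the block (-0.60 ± 0.21, adjusted p = 0.269 without and 0.0484 with it). Mis12 itself read 7.86, 7.80 and 7.61 in shControl and 8.22, 7.94 and 8.14 in shAtoh8, all shAtoh8 arrays above all control arrays. That is a log2 fold change of 0.34 ± 0.11, which did not pass (adjusted p = 0.213, and 0.141 with the block). Zwint, a Knl1 partner, read 0.23 ± 0.08 without overlap (0.245 and 0.207). Mis12 and Zwint were singled out after their values were seen. In the Ska complex, which helps Ndc80 stay on shortening microtubules, Ska3 fell with the block (-0.52 ± 0.11, adjusted p = 0.0828 without and 0.0451 with it), 1 of 3 subunits. Ska1, also singled out, read -1.38 ± 0.49 (0.261 and 0.0771).

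**Figure D2:**
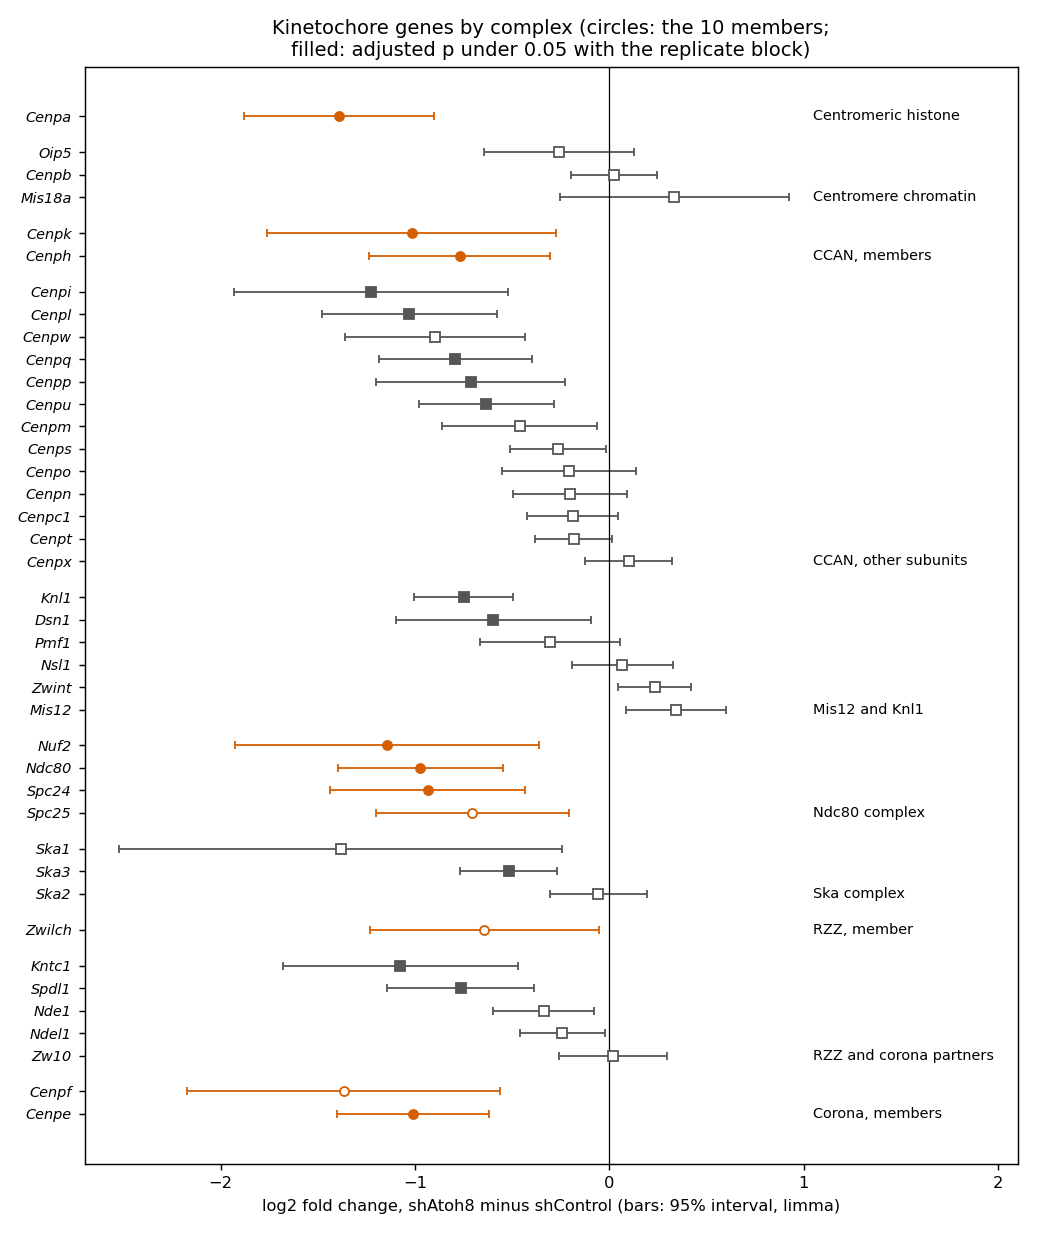
Log2 fold changes (shAtoh8 minus shControl) with limma's 95% intervals for the 10 members (circles) and 30 other kinetochore genes (squares), ordered by complex. Filled symbols passed an adjusted p of 0.05 with the replicate block. All circles lie left of 0, from -1.39 to -0.64, and 7 of the 30 squares lie right of 0.

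Across the 30 measured kinetochore genes outside the members, 23 had a negative value, the median was -0.28 against -0.99 for the members, and 1 fell in limma (Knl1). With the block 10 fell and 0 rose. Over all genes, 0.638% fell in limma and 2.75% with the block. The members were chosen with results of these arrays in view, so the gap between these medians is a description.

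Zwilch, the RZZ subunit after which the complex takes a letter, had the smallest difference of the 10. It read 8.00, 7.44 and 7.38 in shControl and 7.13, 7.30 and 6.45 in shAtoh8. The groups were separated by 0.08, and in replicate 2 the difference was only -0.13. Zwilch differed by -0.64 ± 0.25 on the log2 scale (95% interval -1.23 to -0.06), and it did not pass (adjusted p = 0.311, and 0.102 with the block). Without shAtoh8 replicate 3 it was -0.39 (adjusted p = 0.532). Its partners in the complex diverged: Kntc1, the Rod protein, fell with the block (-1.08 ± 0.26, adjusted p = 0.117 without and 0.0425 with it), while Zw10, singled out as the remaining subunit, read 0.02 ± 0.12 (0.972 and 0.942). Spdl1, which links RZZ to dynein, fell with the block (-0.77 ± 0.16, 0.0866 and 0.0484).

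Cenpe, a plus-end directed kinesin that moves chromosomes to the spindle equator, read 7.51, 7.29 and 7.43 in shControl and 6.42, 6.73 and 6.06 in shAtoh8. The control arrays lay within 0.22 of each other and all shAtoh8 arrays below them. The log2 fold change was -1.01 ± 0.17, which just missed the threshold without the block and passed with it (adjusted p = 0.0520 and 0.0359). Without the shAtoh8 replicate 2 array it passed (-1.18, adjusted p = 0.0395), and with any of the other 5 arrays left out it did not (-1.07 to -0.84, adjusted p = 0.0907 to 0.168). Its dimmer probe set, with a mean of 3.66, was lower in all 3 pairs (-0.35 ± 0.12, adjusted p = 0.252). Cenpf, a corona protein named mitosin in human cells, read 8.11, 8.21 and 8.29 in shControl and 6.79, 7.63 and 6.08 in shAtoh8. Its control arrays were nearly as tight as those of Cenpa, and its shAtoh8 arrays had the widest spread of the members (SD 0.78 against 0.09 in shControl). The log2 fold change was -1.37 ± 0.34 (adjusted p = 0.128, and 0.0610 with the block). Without shAtoh8 replicate 2 it was -1.77 and passed (adjusted p = 0.0380). With any of the other 5 arrays left out it did not pass (adjusted p = 0.197 to 0.317), and it was -0.99 without shAtoh8 replicate 3. The other probe sets of Cenpf read -0.21 ± 0.12 and -0.01 ± 0.14 (adjusted p = 0.535 and 0.987).

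Taking all 5 members with several probe sets, 6 of the 8 other probe sets had the sign of the main one. Among these 6 were values as small as -0.03 (Cenpk) and -0.01 (Cenpf), and 46.9% of all genes had a negative value. Of the 8 other sets, 0 passed limma or the blocked fit, and 7 had overlapping groups. The exception was the Cenpa set marked x, where all 3 shAtoh8 arrays lay above all 3 shControl arrays, opposite to the main set. An unadjusted p under 0.05 was reached by the dimmer Cenpe set in both fits and by the Cenpf set at -0.21 in the blocked fit alone. All 8 were dimmer than the main probe set of their gene by construction, and which part of the transcript each reads was not analysed here. Cenph, Ndc80, Nuf2, Spc24 and Zwilch had 1 probe set each, so their values have no second reading.

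**Figure D3:**
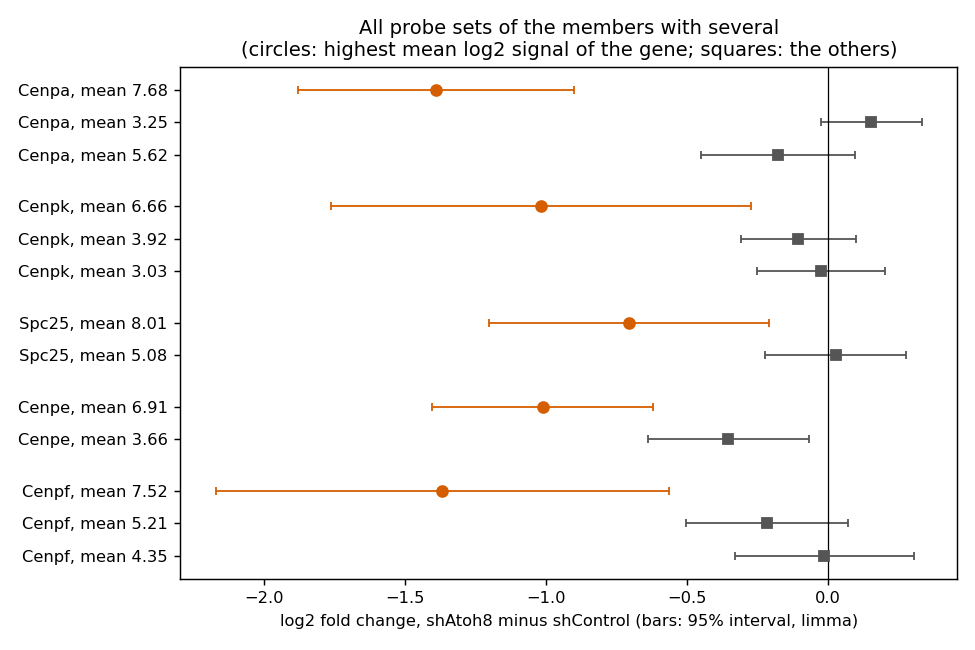
Log2 fold change with limma's 95% interval for every probe set of Cenpa, Cenpk, Spc25, Cenpe and Cenpf, each labelled with its mean log2 signal over the 6 arrays; circles mark the probe set with the highest mean of its gene. The circles lie between -1.39 and -0.71 and the 8 squares between -0.35 and 0.16.

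The size of the differences varied by replicate number. In pair 2 the difference was the smallest of the 3 for all 10 genes, and it was largest in pair 3 for 7 genes and in pair 1 for Cenph, Cenpk and Spc24. The mean over the 10 was 7.62, 7.34 and 7.22 on shControl arrays 1, 2 and 3 against 6.54, 6.77 and 5.89 with the Atoh8 hairpin, or -1.08, -0.57 and -1.33 within pairs. The shAtoh8 replicate 3 array was the lowest of all for each gene. The shAtoh8 replicate 2 array, the one with weak spikes, was the highest of its group for 9 genes, Ndc80 being the exception. Its low spike signal and large actin difference thus went with the small differences of pair 2, and their part in them was not tested. Without both arrays of replicate 2, a fit added after the data were seen, all 10 members passed lower in the blocked fit, against 0 without replicate 1 and 0 without replicate 3. Of all 18193 genes, 666 passed lower without replicate 2, and 0 passed in either direction without replicate 1 or without replicate 3. In the fits without replicate 1 and without replicate 3, 9 and 10 members had an unadjusted p under 0.05. So did 3004 and 2565 of all genes, in either direction.

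General proliferation markers shared this order. All 6 measured were lower in every pair, with a median log2 fold change of -1.09, and their mean differed by -0.95, -0.55 and -1.56 in pairs 1, 2 and 3. Limma called 0 of them (5 had an unadjusted p under 0.05). The blocked fit, which called 2.75% of all genes lower, called 2, both lower. These were Top2a, the topoisomerase that untangles chromosomes (-1.70 ± 0.37, adjusted p = 0.0927 without and 0.0363 with it), and the mitotic kinase Cdk1 (-1.10 ± 0.23, 0.0879 and 0.0262). Their part in the lower kinetochore levels was not tested. Among 12 regulators of mitotic promoters the median was -0.08. Limma called 0 of them (4 had an unadjusted p under 0.05), and 1, Mybl2, a MuvB-binding activator, fell with the block (-0.85 ± 0.17, 0.0741 and 0.0339).

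**Figure D4:**
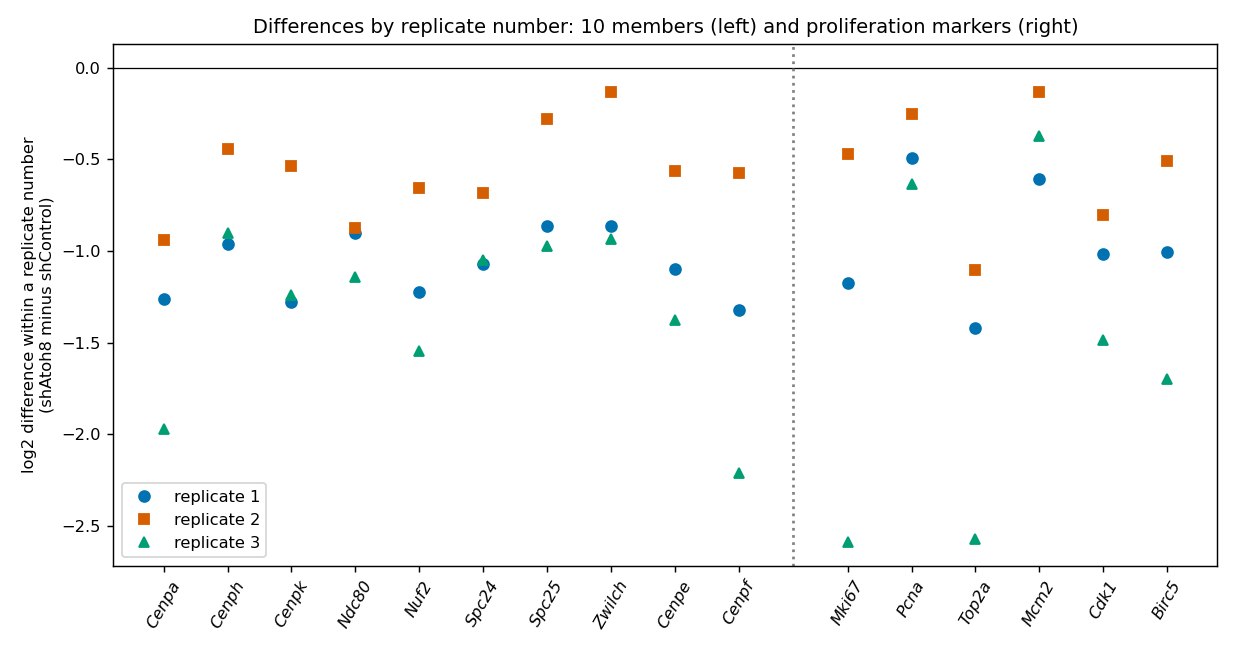
Log2 difference between shAtoh8 and shControl within each replicate number for the 10 members, left of the dotted line, and 6 proliferation markers, right of it; symbols and colours stand for the replicate number. All points lie below 0, and replicate 2 gives the smallest difference for all 10 members.

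The genes whose array-by-array pattern was nearest to that of the members were Snx4, Gmnn, Kif23, Kntc1 and Cdca3. Nearness was the root mean square distance, over the 6 arrays, between a gene's centred log2 signal and the mean centred profile of the 10. It was 0.067 for Snx4, an endosomal sorting nexin, 0.073 for Gmnn, the replication licensing inhibitor geminin, 0.089 for Kif23, a cytokinesis kinesin, 0.089 for Kntc1 and 0.091 for Cdca3. The members themselves were 0.099 (Spc24) to 0.331 (Cenpf) from their mean, to which each contributes. The 5 genes had log2 fold changes of -1.03 ± 0.20, -0.91 ± 0.19, -1.13 ± 0.23, -1.08 ± 0.26 and -0.91 ± 0.23 in that order. With 6 arrays in 2 groups the distance is a description of these arrays.

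**Figure D5:**
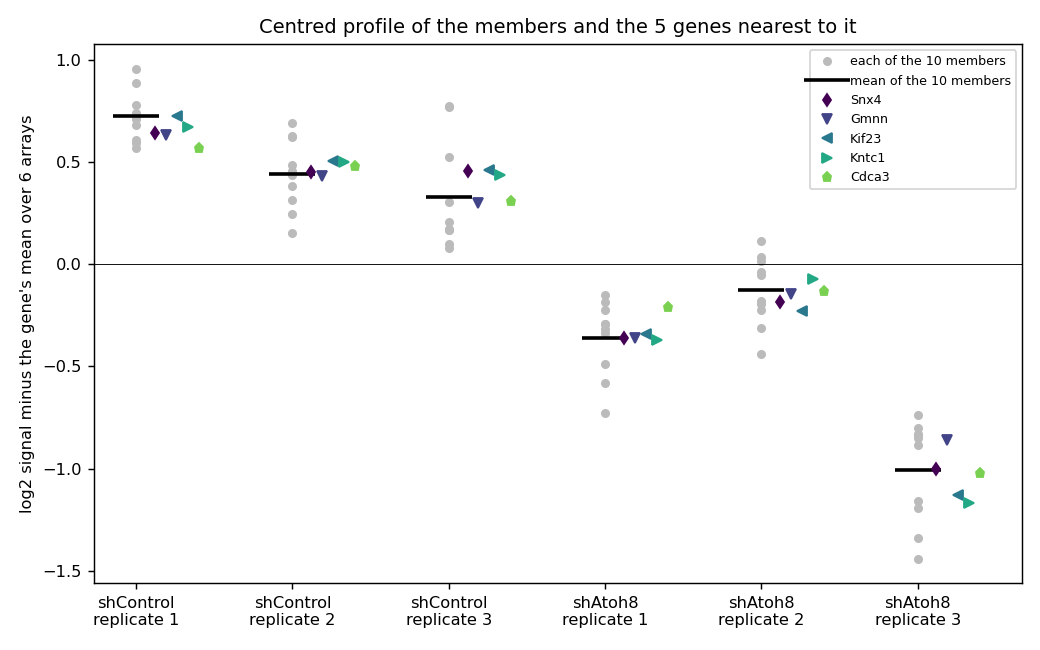
Log2 signal minus the gene's mean over the 6 arrays, by array, for the 10 members (grey), their mean (black bars) and the 5 genes outside the members nearest to that mean (coloured). The mean lies above 0 on all shControl arrays and below 0 on all shAtoh8 arrays, lowest in shAtoh8 replicate 3.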

How the data were processed

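The authors' deposited table holds log2 signals of 45101 probe sets on 6 Affymetrix arrays, made with RMA in the affy package, per the submitters' processing notes; no source used here gives the versions. RMA puts arrays on one distribution, so a shift of most genes would be removed. The 64 control probe sets were set aside. Of the 45037 tested, 34945 had 1 gene symbol in the platform annotation, 932 several and 9160 none. No brightness filter was applied in the main setting. The number of arrays limits precision.

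shAtoh8 and shControl were compared with limma 3.58.1 (lmFit, eBayes) in R 4.3.3, two-sided, with Benjamini-Hochberg adjustment over all tested probe sets and a threshold of 0.05. Errors are moderated SEs of the fit without the block, also where a blocked p is printed. The fit was tested on simulated data. Replicate numbers were taken to pair arrays, since deviations from group means, over all tested probe sets, correlated at 0.407, 0.187 and 0.433 within numbers (-0.351 to 0.029 between). A gene was named as a member, by list (up to 4 that passed, otherwise the 2 with the smallest p) or by profile distance. Members and lists were chosen with earlier results of these data known. Alternatives covered scaling, brightness, variance model, weights, probe sets, thresholds and omitted arrays. Sequences are from RefSeq.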

Additional observations from a re-analysis of the deposited data

How the results depend on the processing

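Non-overlapping groups fix the direction of the members in advance when arrays are left out or weighted. The replicate block, variance model, brightness filter, thresholds, minimum fold and omission of probe sets marked x or s left the main fold changes unchanged. In 21 of 22 settings, the main one included, every measured member was negative, but few of these settings could have shown another sign. The exception was the setting without probe sets marked x, s or a, where Spc25 read 0.028 on its dimmer set, 0 members passed of 8 measured and Cenpa read -0.18. Leaving out the x and s marks alone, added after seeing the data, left 1 member past the threshold, Cenpa. The count of members past the threshold, 1 in the main setting, was 2 with median centring, brighter probe sets, the trend and robust variance model, array weights and the mean of probe sets, 7 with the replicate block, 3 at an adjusted p under 0.1, and 0 at 0.01 and with a minimum fold of 1.5. With an array left out it ranged from 0 to 3. In the same order as far as they moved, the 210 genes called became 324 (brighter probe sets), 339 (weights), 459 (mean of probe sets), 849 (replicate block), 691 (0.1), 0 (0.01) and 0 (minimum fold), and 0 to 117 with an array left out. With the replicate block and without both arrays of replicate 1, 2 or 3, the counts were 0, 10 and 0 members and 0, 966 and 0 genes. The cause of these shifts was not tested.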
